A study of Mus musculus with 4 samples.

Results

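The genes described here encode receptors for neurotransmitters, peptide hormones and lipid mediators. They were taken by gene symbol from the platform's annotation, with a pattern covering adrenergic, cholinergic, purinergic, serotonin, dopamine, GABA, glutamate, opioid, somatostatin, neuropeptide Y and related receptor names, together with the numbered Gpr genes. The pattern took 120 probe sets of 97 genes, out of 10833 probe sets with a single gene and 8251 genes. A probe set is a group of short oligonucleotides on the array that together give 1 value, and 17 of the genes had more than 1 probe set. The samples were seminal vesicles of 4 C57Bl/6J mice, all Nkx3.1 +/+ and 15 months old, hybridised to Affymetrix Mu74AV2 arrays with 1 array per sample. There was a single group, with no treatment and no mutant or younger group beside it. Each sample carries its own number in the labels, which do not name litters or batches, so the spread given below is that between these 4 samples. Mouse numbers 1 to 4 are names alone and carry no order.

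Most of these receptors are G protein-coupled receptors, which span the membrane and pass a signal from the bound ligand to G proteins, cyclic AMP or inositol phosphates. The nicotinic, GABA-A, AMPA, NMDA and P2X receptors are ion channels that the ligand itself opens. In the seminal vesicle, noradrenaline and ATP from sympathetic nerves contract the muscle coat through alpha-1 adrenergic and P2X receptors, and acetylcholine drives secretion through muscarinic receptors. Among receptors fixed in the rule for named genes, Adra1a, Adra1d, Adra2a, Adra2b, Adrb1, Adrb3, Chrm2, Chrm3, Oxtr, Ednra, Agtr1a, Prlr and Lhcgr were not analysed here. The pattern also took genes outside the receptor classes, 6 in all. They are Npy (the neuropeptide Y precursor, a ligand), Agtrap (an angiotensin receptor-associated protein), Grina (an NMDA receptor-associated membrane protein), and Gpr137b, Gpr37l1 and Gpr137b-ps, whose names carry a suffix.

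The arrays were alike as a whole. Their medians over 12422 probe sets lay between 4.95 and 4.98, and the 6 pairs of arrays had correlations (Pearson's r) of 0.992 to 0.994, taken over probe sets and given as a description. Secretory proteins of the gland were bright (6 of 6 measured genes above the background limit given below), among them Svs4 at 12.99 ± 0.03 and Svs5 at 13.09 ± 0.06 (SD, n = 4). Of 19 measured neuron genes 1 lay above that limit, Tubb3 at 7.30 ± 0.06, and Snap25 (2.44 ± 0.15) and Syt1 (2.31 ± 0.09), which encode proteins of synaptic vesicle release, did not. Of 10 endothelial genes 2 did, and of 13 smooth muscle genes 10. Over all genes the share above that limit was 28.4%, and these short lists were not tested against it. Fewer cells of a type and less RNA per cell cannot be told apart in whole tissue.

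The first question was which receptors gave signal above a background limit in the gland. Few did. A probe set was counted as above the background range when its log2 value exceeded, on all 4 arrays, the 90th percentile of a background set. That set was made of genes typical of liver, eye, pituitary and other organs (104 probe sets, 85 genes). This limit was 6.19, 6.01, 6.11 and 6.23 in mice 1 to 4. Of the 120 receptor probe sets 13 passed it, or 10.8%, beside 23.3% of all probe sets. By gene, 12 of 97 passed, or 12.4%, beside 28.4% of all genes. Of the background set itself, 7 of 104 probe sets and 7 of 85 genes passed. A pass alone therefore does not show that a receptor was expressed in the gland. A further 7 receptor probe sets passed on some arrays. Of the 120, 100 passed on none, beside 70.7% of all probe sets. The median of the receptor probe sets' means was 4.47, beside 4.97 for all probe sets. The share depends on the limit, and with the 75th percentile in its place 38.3% of receptor probe sets and 47.3% of all probe sets passed.

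**Figure D1:**
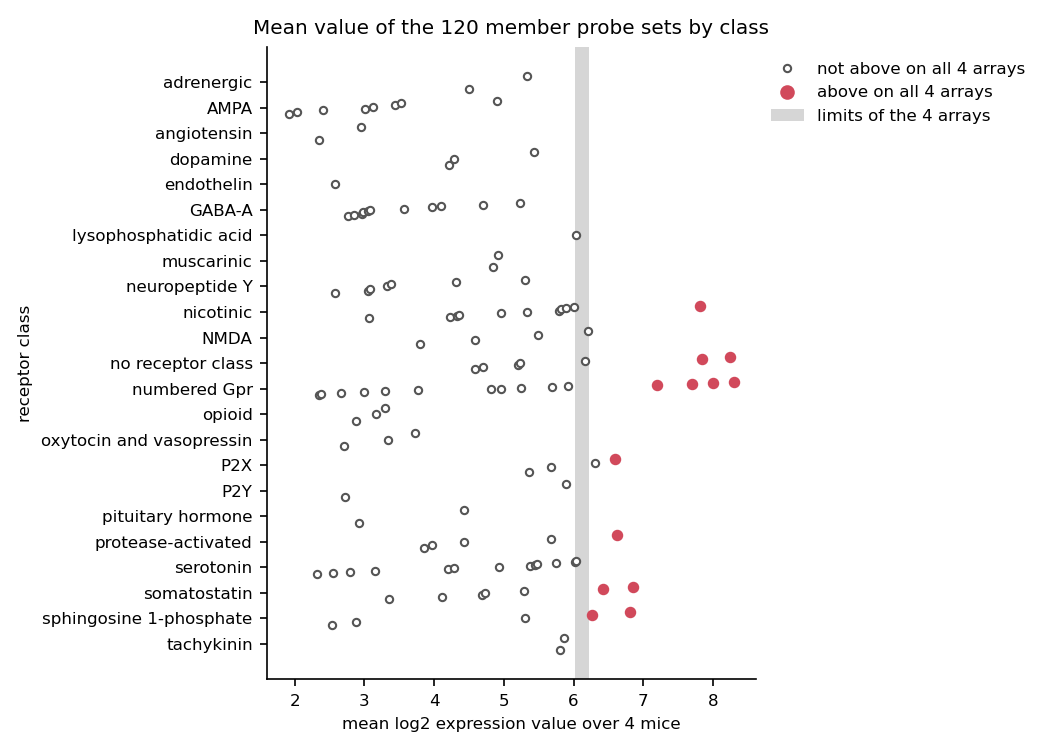
Mean log2 expression value over 4 mice (horizontal axis) of each of the 120 probe sets, by receptor class (vertical axis). Red points passed the background limit on all 4 arrays, open points did not, and the grey band spans the 4 limits from 6.01 to 6.23. The 13 red points fall in 7 of the rows, and those at 7 and above belong to the nicotinic, the numbered Gpr and the remaining genes.

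Receptors for lipid mediators and proteases were among those above the range. S1pr2 and S1pr3 encode receptors for sphingosine 1-phosphate, a lipid released by platelets and endothelium that acts on vessel and muscle tone. S1pr3 had 6.93, 6.66, 6.73 and 6.95 in mice 1 to 4 (mean 6.82 ± 0.14, SD, n = 4). S1pr2 had 6.33, 6.20, 6.22 and 6.32 and passed narrowly, by 0.09 to 0.19 log2 units. Both were higher in mice 1 and 4 than in mice 2 and 3. The other members of this class did not pass on any array: S1pr1, the main endothelial form, averaged 2.54 and 2.89 by its probe sets, and S1pr4, the form of lymphoid cells, 5.30 ± 0.08. F2r is the thrombin receptor that is activated by cleavage of its own N terminus. By its brightest probe set it had 6.63, 6.44, 6.70 and 6.75, lowest in mouse 2. Its other probe sets had 5.52, 5.76, 5.68 and 5.73, and 3.780, 3.902, 3.843 and 3.901, and passed on no array. In both of these mouse 2 gave the top value and mouse 1 the bottom one. The mouse 2 low of F2r therefore rests on its brightest probe set alone. The F2r relatives F2rl2 (4.43 ± 0.12) and F2rl3 (3.97 ± 0.14) passed on no array. With the 95th percentile as limit S1pr2, F2r, P2rx6 and Sstr3 no longer passed on all arrays, and 9 receptor probe sets did. Lpar1, a receptor for lysophosphatidic acid, lay at the limit with 5.99, 6.03, 5.90 and 6.24, and passed in mice 2 and 4 by at most 0.02.

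Promoter windows of 3 of these genes are shown because S1pr3 and F2r stood above the range and P2rx4, described below, varied most between the mice. Each window runs from 250 bases before to 50 after the first listed start, from RefSeq in build GRCm38.p6, in lower case with the GC box GGGCGG and the TATA box TATAAA in capitals on either strand. They lie at chr13:51408368-51408667 (plus strand), chr13:95618417-95618716 (minus strand) and chr5:122707294-122707593 (plus strand).
S1pr3: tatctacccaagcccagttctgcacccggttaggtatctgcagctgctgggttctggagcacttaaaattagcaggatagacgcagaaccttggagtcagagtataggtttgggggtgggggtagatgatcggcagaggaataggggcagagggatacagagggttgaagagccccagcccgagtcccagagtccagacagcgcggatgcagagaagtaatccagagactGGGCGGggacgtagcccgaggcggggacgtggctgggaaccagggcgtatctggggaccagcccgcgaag
F2r: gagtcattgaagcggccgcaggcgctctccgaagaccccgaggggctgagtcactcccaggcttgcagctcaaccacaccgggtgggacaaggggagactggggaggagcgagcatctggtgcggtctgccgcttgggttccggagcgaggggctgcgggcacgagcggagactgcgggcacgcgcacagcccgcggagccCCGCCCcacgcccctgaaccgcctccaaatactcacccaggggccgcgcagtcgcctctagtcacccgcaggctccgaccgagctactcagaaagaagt
P2rx4: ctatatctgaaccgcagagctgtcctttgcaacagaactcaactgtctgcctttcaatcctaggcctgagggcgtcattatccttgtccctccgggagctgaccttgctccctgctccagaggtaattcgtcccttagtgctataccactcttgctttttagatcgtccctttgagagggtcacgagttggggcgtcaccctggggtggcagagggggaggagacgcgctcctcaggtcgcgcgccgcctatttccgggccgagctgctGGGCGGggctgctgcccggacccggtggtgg
Each of the 3 windows held 1 GC box and 0 TATA boxes, with 14, 28 and 18 CG dinucleotides. Windows were found for 74 of the 97 genes, 92 in all. A GC box occurred in 44.6% of them and in 35.7% of 32851 windows of all genes, and a TATA box in 10.9% and 13.6%. For the 9 genes above the range that had a window, 6 of 11 windows held a GC box, against 35 of 81 for the others. The median number of CG dinucleotides was 10 in both sets, and 7 over all genes. These are letter matches, read here as a description only, and no test was made.

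Of the purinergic receptors, which bind ATP and related nucleotides, 1 of 6 genes was above the range, beside 28.4% of all genes. P2rx6, a P2X channel subunit, had 6.57, 6.47, 6.69 and 6.67 in mice 1 to 4 (mean 6.60 ± 0.10, SD, n = 4). P2rx1, the main channel through which ATP contracts genital smooth muscle, had 5.69, 5.59, 5.73 and 5.68 and passed in no mouse. P2rx7, a channel of macrophages, was likewise under the limit at 5.36 ± 0.10. The P2Y receptors couple to G proteins instead. P2ry2, an epithelial nucleotide receptor, had 5.75, 5.64, 6.11 and 6.05, and P2ry1 averaged 2.73 ± 0.17. Neither passed in any mouse, though P2ry2 in mouse 3 lay at the limit. P2rx4 passed in mice 2 and 4 alone.

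Somatostatin receptors inhibit secretion in endocrine and neural cells. Of 5 genes 2 were above the range, or 40%, beside 28.4% of all genes, a comparison of few genes. Sstr4 had 6.90, 6.80, 6.92 and 6.81 in mice 1 to 4 (mean 6.86 ± 0.06), and Sstr3 had 6.48, 6.33, 6.38 and 6.50 (mean 6.42 ± 0.08, SD, n = 4 each). Their values moved by less than 0.2 log2 units between the mice. Sstr1 (4.73 ± 0.11) and Sstr5 (4.12 ± 0.15) passed in no mouse, and the probe sets of Sstr2 averaged 3.35, 4.69 and 5.30.

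The numbered Gpr genes encode receptors named before a ligand was known, several of which still lack one. In this class 4 of 13 genes were above the range, or 30.8%, beside 28.4% of all genes. Gpr12, an orphan receptor known from brain and oocytes, had 8.32, 8.22, 8.34 and 8.30 in mice 1 to 4 (mean 8.29 ± 0.05, SD, n = 4). Gpr27, a receptor known from brain and pancreatic islets, had 7.29, 7.08, 7.23 and 7.20. Gpr50, a relative of the melatonin receptors, had 7.88, 7.63, 7.66 and 7.63, so mouse 1 stood above the other 3. For Gpr162 the call rests on 1 of 2 probe sets. That probe set had 8.05, 7.88, 8.06 and 7.99, while the other had 6.01, 5.80, 5.98 and 5.87 and passed in no mouse. The remaining 9 genes of the class passed in no mouse, including Gpr65, an acid-sensing receptor of lymphoid and myeloid cells, at 3.30 ± 0.07, Gpr182, known from endothelium, at 2.67 and 4.81, and Gpr132 at 5.69 ± 0.14.

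**Figure D2:**
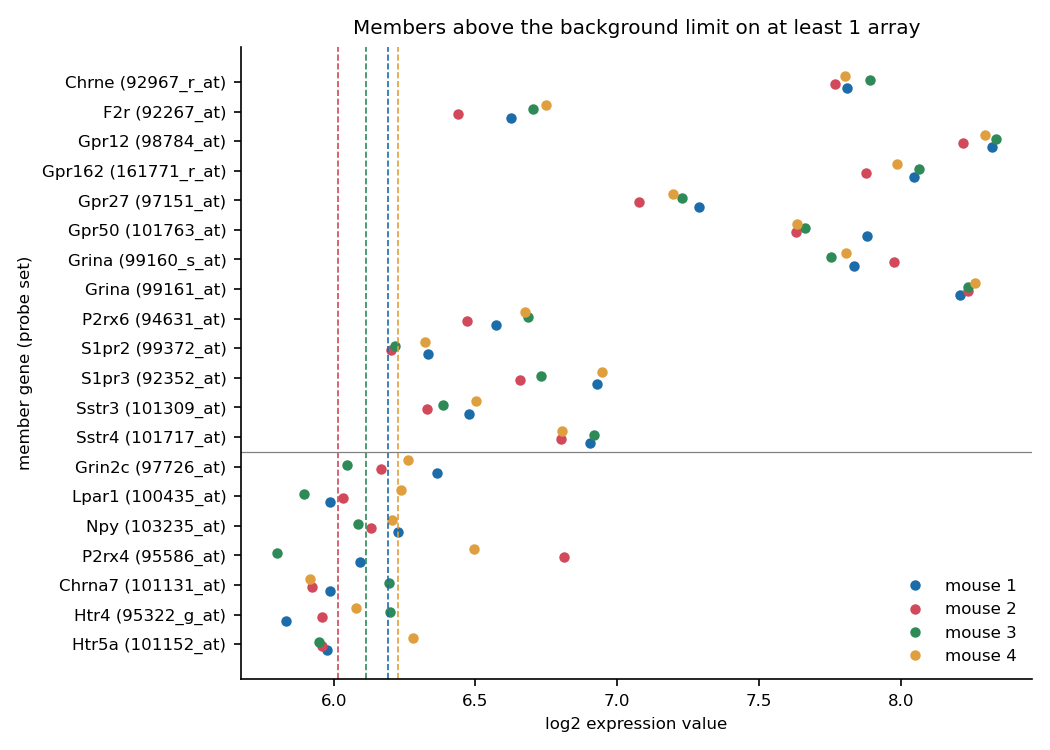
Log2 expression value (horizontal axis) in each mouse for the 20 probe sets that passed the background limit on at least 1 array (vertical axis, gene and probe set). Dashed lines are the limits of the 4 arrays in the same colours, and the grey line parts the 13 probe sets above on all arrays from the 7 above on some. Mouse 2 is the lowest point in 11 of those 13.

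Ion channel receptors of nerve and muscle mostly stayed under the limit. The GABA-A subunits (10 genes) had means from 2.76 to 5.23 and the AMPA subunits (4 genes) from 1.93 to 4.91. Of either class 0 passed in any mouse, where 70.7% of all probe sets also passed on no array. Over all genes 28.4% were above the range, and these classes are small. Among NMDA subunits, Grin2c had 6.36, 6.17, 6.05 and 6.26 and missed the limit in mouse 3 alone, by 0.07. Grin2a (3.80 ± 0.17), Grin2b (4.59 ± 0.14) and Grin2d (5.50 ± 0.13) passed in no mouse. Grina, which is no channel subunit but a membrane protein found in many tissues, was above the range by both of its probe sets, at 8.24 ± 0.02 and 7.84 ± 0.10 (SD, n = 4).

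Of the nicotinic acetylcholine receptor subunits, 1 of 8 genes was above the range, or 12.5%, beside 28.4% of all genes. Chrne, the epsilon subunit of the adult muscle end plate, had 7.81, 7.77, 7.89 and 7.81 in mice 1 to 4 by 1 probe set, but averaged 5.81 ± 0.19 and 4.33 ± 0.19 (SD, n = 4) by the other two. It was lowest in mouse 2 by all 3 probe sets. The other subunits of the muscle receptor passed in no mouse, with Chrna1 at 3.06 ± 0.13, Chrnb1 at 4.23 ± 0.11, Chrnd at 5.33 ± 0.05 and the fetal subunit Chrng at 4.96 and 5.79. Of 8 measured skeletal muscle genes, 1 of them itself a receptor described here, 1 was above the range, Acta1 at 9.51 ± 0.23, while the defining markers Ckm (5.04 ± 0.14) and Myh4 (5.05 ± 0.08) were not. Chrna7, a subunit of neurons and macrophages, had 5.99, 5.92, 6.19 and 5.92 and passed in mouse 3 alone. Muscarinic receptors, the G protein-coupled arm of acetylcholine signalling, were represented by Chrm1 (4.84 ± 0.14) and Chrm4 (4.92 ± 0.10), neither above the limit in any mouse.

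Receptors for amines and peptide hormones stayed under the limit with few exceptions. The adrenergic receptors measured were Adra1b, which couples noradrenaline to contraction, with 4.46, 4.36, 4.57 and 4.63 in mice 1 to 4, and Adra2c, with 5.42, 5.27, 5.31 and 5.36. Of 11 serotonin receptor genes 0 passed on all arrays, beside 28.4% of all genes. Htr5a had 5.98, 5.96, 5.95 and 6.28 and passed in mouse 4 alone, and Htr4, by 1 of 3 probe sets, had 5.83, 5.96, 6.20 and 6.08 and passed in mouse 3 alone. The other serotonin receptor genes had means from 2.32 to 5.74. Dopamine receptors averaged 4.21 to 5.43 (3 genes), opioid receptors 2.89 to 3.29 (3 genes) and neuropeptide Y receptors 2.58 to 5.30 (5 genes). Of these 0 were above the limit in any mouse, where 70.7% of all probe sets also passed on no array. Npy, the neuropeptide Y precursor gene of sympathetic nerves, lay at the limit with 6.23, 6.13, 6.08 and 6.21, and passed in mice 1 and 2.

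The tachykinin receptors, through which substance P and neurokinin A contract smooth muscle, were not above the limit. Tacr2 had 5.93, 5.78, 5.85 and 5.92 and Tacr1 averaged 5.81 ± 0.09 (SD, n = 4), both under the limit in every mouse. The measured receptors of the pattern for endothelin, vasopressin, angiotensin and growth hormone were under it as well. Outside the pattern, the bradykinin receptor Bdkrb1 and the pituitary hormone receptor Fshr, given below, were above the range. The endothelin receptor Ednrb had 2.65, 2.43, 2.61 and 2.63. The vasopressin receptor Avpr1a averaged 2.71 and 3.34 by its probe sets, Avpr2 3.72 ± 0.11 and the angiotensin receptor Agtr2 2.36 and 2.96. Ghr, the growth hormone receptor, averaged 4.42 and 2.93. A value under the limit does not show that a receptor was absent, since RMA values of dim probe sets carry little information on level.

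Probe sets of 1 gene often disagreed in level. The spread between the lowest and the highest mean was over 1 log2 unit for 10 of the 17 genes with several probe sets, with a median of 1.49. In 3 genes, F2r, Chrne and Gpr162, probe sets fell on both sides of the limit. F2r averaged 6.63, 5.68 and 3.86, and so its place above the range rests on 1 of 3. In Chrne and Gpr162 the probe set above the range carried the suffix _r_at, with which Affymetrix marks sets made under relaxed rules for choosing probes. Of the 6 receptor probe sets so marked 2 were above the range, and of all 901 on the array 184, or 20.4%. With plain _at probe sets alone, 10 of 103 receptor probe sets were above it, or 9.71%, beside 23.3% of all such probe sets. Grina was the only gene with all of its several probe sets above the range.

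**Figure D3:**
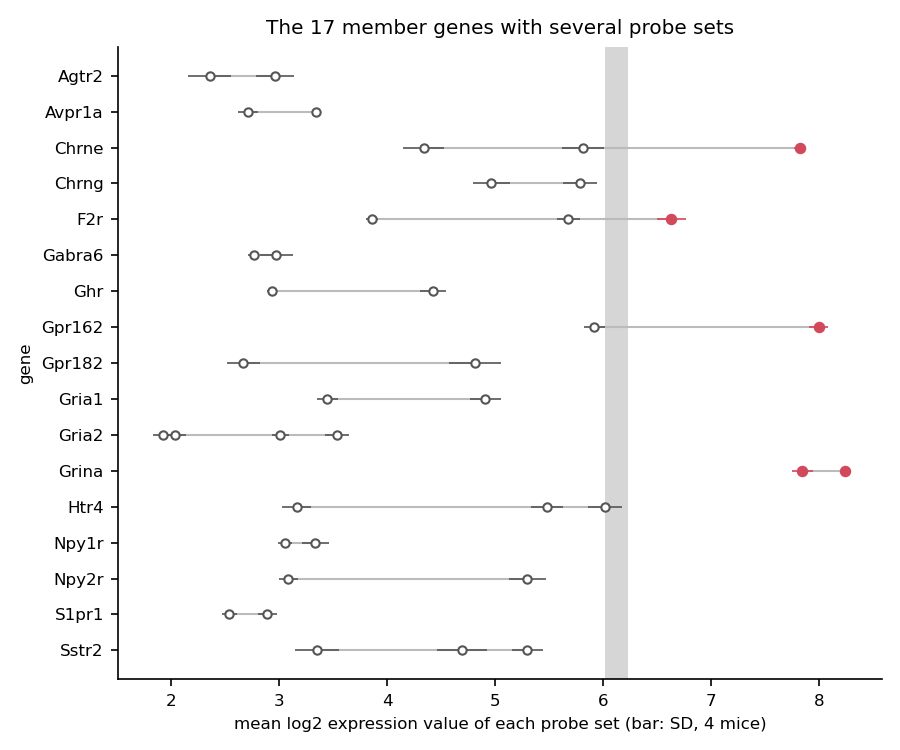
Mean log2 expression value of each probe set (horizontal axis, bar: SD over 4 mice) for the 17 genes with several probe sets (vertical axis). Red points were above the background limit on all 4 arrays, and the grey band spans the 4 limits. Chrne, F2r and Gpr162 have points on both sides of the band.

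The second question was which receptors differed between the mice. Each probe set's variance over the 4 arrays was set against the variance that limma's model predicts at its signal. At an adjusted p threshold of 0.05, 0 of 120 receptor probe sets were called variable, beside 0.282% (35) of all 12422. At an unadjusted p under 0.05 stood 2 of 120, or 1.67%, beside 5.44% of all, namely P2rx4 and the dimmer probe set of Agtr2, an angiotensin receptor. The median SD was 0.106 for receptor probe sets and 0.112 for all, and 3 receptor probe sets had a range over 0.5 log2 units, beside 8.54% of all. No member was called under any alternative that was run, where the lowest adjusted p was 0.180 by limma, for P2rx4 without mouse 1.

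P2rx4, an ATP-gated channel of epithelial, endothelial and myeloid cells, had the largest SD of the class. In mice 1 to 4 its values were 6.09, 6.81, 5.80 and 6.50 (mean 6.30 ± 0.45, SD, n = 4), where the model predicted an SD of 0.12. Mice 2 and 4 were above the background limit and mice 1 and 3 below it. The difference did not pass the adjusted threshold (adjusted p = 0.244, limma's variance model). The next largest SD was 0.24, in Gpr182, whose 2 probe sets shared their brightest array, mouse 1, and their dimmest, mouse 3.

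**Figure D4:**
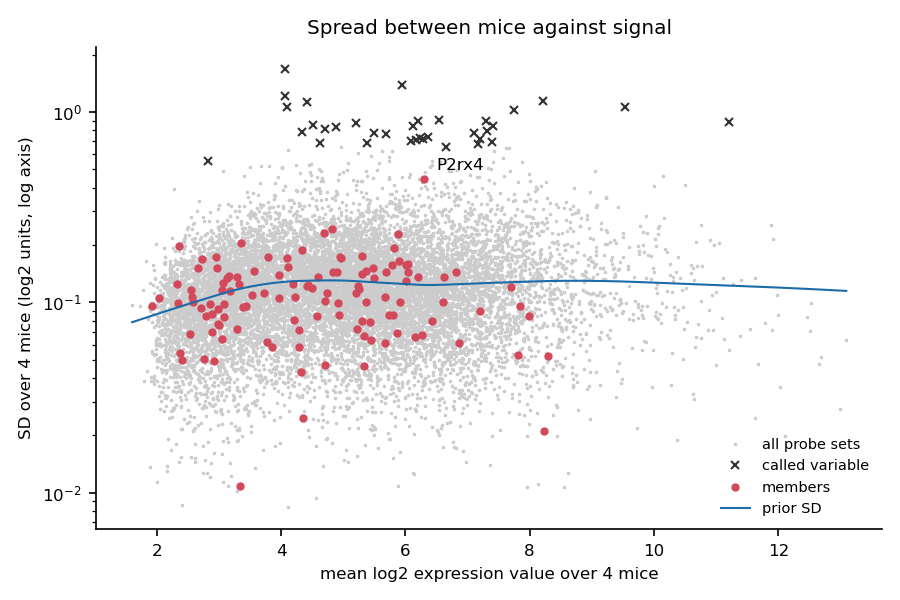
SD over the 4 mice (vertical axis, log scale, log2 units) against the mean log2 expression value (horizontal axis) of each probe set. Grey points are all probe sets, crosses the 35 called variable, red points the 120 members and the line the SD predicted by the model. P2rx4, at 0.45, is the highest of the members, and no cross lies on a member.

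Some marker genes of other cell types had the same order of mice as P2rx4, chosen for display after their values were seen. The keratin gene Krt19, of luminal epithelium, had 8.02, 8.48, 7.58 and 8.25 in mice 1 to 4, and Krt18 had 8.06, 8.37, 7.97 and 8.27. Both, like P2rx4, were highest in mouse 2, then 4, then 1 and lowest in mouse 3. The alpha globin gene Hba-a1, of red blood cells, showed this order too, with 7.88, 8.51, 7.71 and 8.39. The luminal list as a whole, with 6 of 11 genes above the range, deviated from its 4-mouse mean by 0.01, 0.13, -0.17 and 0.03, and 2 of those 6 genes had the order exactly, beside 6.30% of all probe sets above the range. The other 4 had other orders: Krt8 (8.44, 8.50, 8.43 and 8.63) was highest in mouse 4, Cdh1 (6.61, 6.47, 6.66 and 6.68) was lowest in mouse 2, Elf3 (7.90, 7.67, 7.42 and 7.45) was highest in mouse 1, and Cldn3 was lowest in mouse 4. Of the erythrocyte list 1 of 4 genes was above the range, and the others, all under the limit, did not have the order exactly. Hbb-b2 (4.19, 5.31, 4.30 and 4.65) was, like Hba-a1, highest in mouse 2 and then mouse 4, but lowest in mouse 1. Alas2 (5.51 ± 0.21, SD, n = 4) was highest in mouse 1, and Epb42 (4.71 ± 0.10) was highest in mouse 4. Macrophage genes took another order, with -0.05, 0.04, 0.22 and -0.21 over the 4 of 11 genes above the range, while Cd68 (4.83 ± 0.11) was under it. The part of these cells in the P2rx4 values was not tested.

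**Figure D5:**
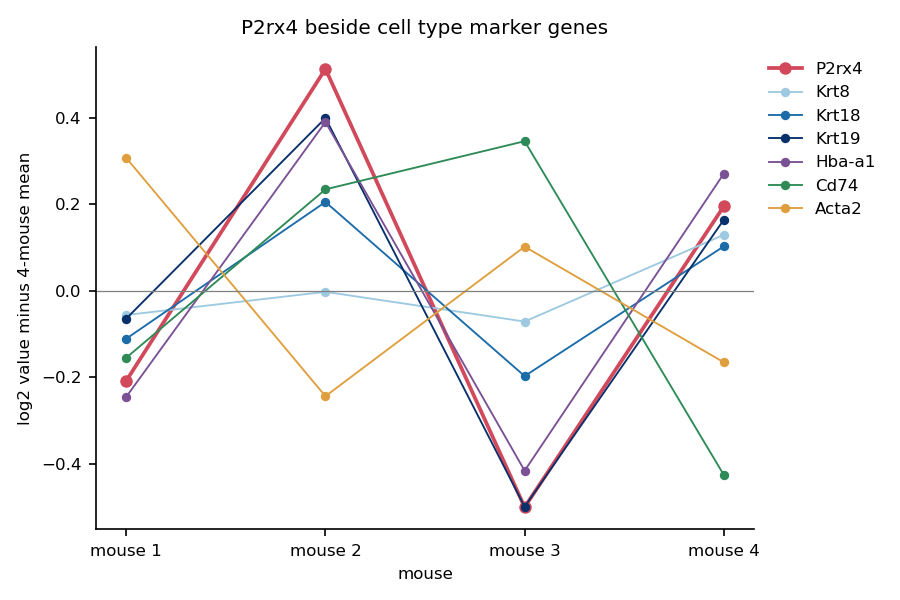
Log2 expression value minus the gene's own 4-mouse mean (vertical axis) in each mouse (horizontal axis) for P2rx4 and for markers of luminal epithelium (Krt8, Krt18, Krt19), red blood cells (Hba-a1), antigen-presenting cells (Cd74) and smooth muscle (Acta2). Lines join the values of a gene and the mice have no order. P2rx4, Krt18, Krt19 and Hba-a1 peak in mouse 2 and reach their minimum in mouse 3.

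Smooth muscle genes and the receptors above the range were also set side by side by mouse. Over 10 smooth muscle genes above the range, the mean deviation was 0.35 in mouse 1 against -0.18, -0.04 and -0.13 in mice 2 to 4, with Acta2 at 9.12, 8.57, 8.91 and 8.64. Over the 13 receptor probe sets the mean deviation was 0.04, -0.08, 0.01 and 0.02 in mice 1 to 4. Their median deviation was 0.05, -0.07, 0.03 and 0.00, beside -0.003, -0.001, 0.002 and -0.006 over all probe sets above the range. Mouse 2 was the lowest of the 4 in 11 of the 13 receptor probe sets, beside 31.2% of all probe sets above the range. All exceptions came from Grina, 1 of whose probe sets was highest in mouse 2. Over all 120 receptor probe sets mouse 2 was lowest in 67, or 55.8%, and the same was seen in 59 of the 104 background-set probe sets, or 56.7%, beside 36.7% of all probe sets. The count among the 13 was 8 with arrays shifted to the same median and 12 with quantile normalization. The share over all probe sets above the range was then 25.1% and 37.3%. The median deviation of the 13 in mouse 2 was -0.07 log2 units in the deposited values, -0.05 after the shift and -0.12 after quantile normalization.

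Genes that act downstream of the receptors were above the range in 43.5% (G protein subunits), 31.2% (cyclic AMP pathway), 15.4% (phospholipase C signalling) and 28.6% (receptor desensitisation) of those measured, beside 28.4% of all genes. Of 23 G protein subunits 10 were above it, among them Gnas, the subunit that stimulates cyclic AMP synthesis, at 11.11 ± 0.13, and the inhibitory subunit gene Gnai2 at 9.99 ± 0.15 (SD, n = 4). Gnai1, another inhibitory subunit gene, averaged 7.36 ± 0.36 and was highest in mouse 1. Of 16 genes of the cyclic AMP pathway 5 were above it, including the catalytic subunit of protein kinase A, Prkacb, at 8.32 ± 0.17, and the adenylyl cyclase gene Adcy6 at 7.35 ± 0.14, whereas the cyclase genes Adcy2, Adcy3 and Adcy4 were not. Of 13 genes of phospholipase C signalling 2 were, Plcb1 at 8.16 ± 0.07 and Prkcd at 7.07 ± 0.04. Of 14 genes that switch receptors off 4 were, namely Arrb1, which encodes an arrestin, at 6.67 ± 0.17, the receptor kinase gene Grk6 at 6.42 ± 0.08, and Rgs3 (7.26 ± 0.06) and Rgs11 (6.61 ± 0.13), which speed the switching off of G proteins. Grk5, another receptor kinase gene, was under the limit at 4.59 ± 0.46, lowest in mouse 1. In these 4 lists 0 genes were called variable by limma, and 4 stood at an unadjusted p under 0.05. No test between the lists and the receptors was made.

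Hormone and peptide receptors outside the pattern were above the range in 7 of 42 genes, beside 28.4% of all genes. They included Ramp1, a partner of the receptor for calcitonin gene-related peptide, at 8.53 ± 0.17, Bdkrb1, a bradykinin receptor, at 7.19 ± 0.16 and Cckbr, a gastrin receptor, at 6.73 ± 0.12 (SD, n = 4). Fshr, the receptor for follicle-stimulating hormone known from gonads, was also above it at 6.68 ± 0.13. Gnrhr (2.85 ± 0.12) and Tshr (2.68 ± 0.11), the receptors for gonadotropin-releasing and thyroid-stimulating hormone, were not. In this list 0 genes were called variable by limma, with 2 at an unadjusted p under 0.05.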

How the data were processed

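The authors deposited 1 log2 expression value for each probe set and array. RMA is named in the submitters' processing notes. Its version, and the set of arrays it was run on, are not stated in the labels. The log2 scale was read from the values (1.47 to 13.2). RMA compresses differences between dim probe sets. Of 12488 probe sets, 66 controls were left out. Genes came from the platform annotation, and all 97 members matched a RefSeq table by gene ID. A gene's value elsewhere is that of its brightest probe set, and a gene was above the range when any probe set was.

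Variance was tested with limma 3.58.1 in R 4.3.3. The residual variance (3 degrees of freedom) was set against a robust prior with signal as trend (8.06 degrees of freedom) by an upper-tail F test, adjusted by Benjamini-Hochberg over 12422 probe sets. On simulated data the test called most spreads of many times the predicted SD and missed those of a few times it, so 0 calls do not show that levels were the same in all mice. The rule for named genes took members above the limit on any array, the 10 lowest p, genes split by the limit and 26 fixed receptors, of which 12 were measured. For lists it took the first 3 measured genes and the 3 brightest above the range. Not all of these are printed, and other list genes, such as Adcy6 and Cdh1, were named outside this rule after their values were seen. Other members were named as class mates after their values were seen. Members and lists were chosen with earlier results of these data known. The number of arrays, 4, limits the precision. Alternatives covered limits, scaling, prior, filters, membership and left-out mice.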

Additional observations from a re-analysis of the deposited data

Results flagged for a closer look

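In 45 probe sets named by the rule, 2 had 1 mouse far from the other 3, measured by the gap to the nearest mouse as a share of the whole range. Chance gives such a gap in about 1 of 20 groups. Gpr50 had 7.88 in mouse 1, with a gap of 0.870 of its range of 0.250 log2 units. Htr5a had 6.28 in mouse 4, the only mouse in which it passed the background limit, with a gap of 0.915 of its range of 0.332.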

How the results depend on the processing

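The number of receptors above the background range depends on the limit. Against 13 probe sets and 12 genes, taking the background set's 75th percentile gave 46 and 41, the array median 46 and 41, the neuron list as reference 31 and 27, and any 1 array above its limit 20 and 19. The 95th percentile gave 9 and 8, with F2r, P2rx6, Sstr3 and S1pr2 lost, and the receptor share stayed below that of all probe sets at each limit (7.50% against 16.5%, 38.3% against 47.3%, 38.3% against 47.0% and 25.8% against 35.5%). Without the numbered Gpr genes 9 and 8 passed, and without the 6 genes of no receptor class 11 and 11. Leaving out a mouse gave 13 to 14 probe sets and 12 to 13 genes, and either rescaling 13 and 12. The mean of a gene's probe sets gave 10 genes. The count of receptor probe sets called variable was 0 under every alternative run, where 15 to 44 of 12422 probe sets were called. With dim probe sets left out, almost nothing could be read from it, since 0 of 3188 above the mean limit and 1 of 6211 above the median were called in all. The alternatives together gave adjusted p-values for P2rx4 from 0.180 to 0.645 by limma. No paired analysis was possible because there was a single group. The cause of these shifts was not tested. Array values near the limit are little above background, which limits the calls of S1pr2, Grin2c, Lpar1 and Npy.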

Other observations

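Ligand genes from the list written for transmitters and their enzymes were set beside their receptors, by level against the background limit alone. Of 36 measured genes 6 were above the range, or 16.7%, beside 28.4% of all genes. They were Penk, Ace, Ada, Agt (6.25 ± 0.11), Oxt (6.41 ± 0.10) and Lhb (6.59 ± 0.05, SD, n = 4). Lhb, a pituitary hormone gene, also belongs to the background set. Penk, the precursor of enkephalins, had 7.38, 7.30, 6.92 and 6.93 in mice 1 to 4, all above the limit. Penk, Ace and Ada have 3 probe sets each, and values here are those of the brightest alone. The opioid receptor genes Oprd1 (3.17 ± 0.11), Oprk1 (3.29 ± 0.14) and Oprm1 (2.89 ± 0.07, SD, n = 4) were not above the limit. For somatostatin the ligand was under the limit: Sst, which is also in the background set, averaged 4.85 ± 0.15 and passed in no mouse, whereas Sstr3 and Sstr4 passed in all. Ace, the angiotensin-converting enzyme gene, had 6.62, 7.11, 6.55 and 6.67, highest in mouse 2, and Ada, which degrades adenosine, averaged 6.70 ± 0.12. Vip, the vasoactive intestinal peptide gene of genital nerves, averaged 3.37 ± 0.08. The lists give no test of these pairs.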
